A study of Mus musculus with 56 samples.

Results

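The genes described here are the nuclear-encoded subunits of the mitochondrial respiratory chain and of ATP synthase, read in mouse liver under inverted and normal feeding times. They were chosen by name alone, as the protein-coding genes of the gene table whose GENCODE symbol begins with Nduf followed by a subunit letter and number, with Uqcr or with Atp5, is Sdha to Sdhd, or begins with Cox4 to Cox8 followed by a subunit letter from a to c. The rule took 80 of the 25415 genes listed, out of 83 that the annotation holds (Cox8c, Cox7b2 and a second Atp5o entry were not listed). They were 37 genes of complex I, 4 of complex II, 8 of complex III, 14 of complex IV and 17 of complex V. Complex was assigned by the start of the symbol alone, which counts Ndufa4 and Ndufa4l2 with complex I.

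Complex I takes electrons from NADH and complex II takes them from succinate, complex III passes them to cytochrome c, complex IV hands them to oxygen, and ATP synthase (complex V) uses the proton gradient that complexes I, III and IV build. Most subunits are encoded in the nucleus and imported, and a small core of the hydrophobic ones is encoded in mitochondrial DNA. In liver this chain feeds ATP to gluconeogenesis, urea synthesis and lipid handling, all of which follow the daily cycle of feeding and fasting.

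Livers came from female C57BL/6J mice aged 9 weeks, which were kept under 12 h light and 12 h dark, entrained for 7 days with free access to chow, and then fed for 7 days either in the light phase only (daytime-restricted feeding, DRF) or in the dark phase only (nighttime-restricted feeding, NRF, the control). Each regimen was sampled at zeitgeber time (ZT, counted in hours from the start of light) 0, 4, 8, 12, 16, 20 and 24, and 4 libraries were made in each of the 14 groups, 56 in all. Whether the libraries of a group came from animals of separate cages was not given, so p-values measure the spread between these livers.

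Levels are scaled counts, that is whole counts recovered from the deposited values and divided by a library factor, so that each library summed to between 917803 and 1184645. The recovered counts ran from 394753000 to 706237000 a library under DRF and from 330878000 to 769732000 under NRF. A unit of these counts need not be an independent read, and no counting interval is given. Differences are log2 of scaled count + 1, DRF minus NRF, which understates the change of genes with low levels, and a gene was called where the adjusted p of limma, taken over all 25414 genes tested, was under 0.05. As a check of the labels, the clock genes Arntl, Dbp, Per2 and Nr1d1 were rhythmic in both regimens and their fitted peaks lay 10.2 to 11.9 h apart between them.

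Of the 80 subunit genes, 77 had a median of at least 100 recovered counts, and the 3 that did not were the muscle or testis isoforms Cox6a2, Cox8b and Cox6b2. Levels are compared between genes per kb of exon. The median was 115 scaled counts per kb for complex II, 89.7 for complex III, 39.5 for complex IV, 28.8 for complex V and 21.3 for complex I. The highest was Uqcrfs1, the Rieske iron-sulfur protein of complex III, at 428 per kb. Among isoform pairs of complex IV, Cox6a1 stood at 103 per kb against 0.013 for Cox6a2, Cox8a at 147 against 0.015 for Cox8b, and Cox6b1 at 98.2 against 0.021 for Cox6b2. Cox7a2 stood at 34.3 per kb and its muscle isoform Cox7a1 at 5.81, so Cox7a1 was low but present. The 3 genes for the c subunit of the ATP synthase ring, whose mature proteins are the same, stood at 34.9 (Atp5g2), 16.04 (Atp5g3) and 4.49 (Atp5g1) per kb. Copies of these genes elsewhere in the genome can share reads with them, and how the authors' counting treated such reads was not given.

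Promoters of 4 subunit genes are shown because their genes carry results described further on, and because they hold letters known from mitochondrial gene promoters. Each line gives the 250 bases before the RefSeq gene start on the gene's own strand, on build GRCm38.p6, with the searched motifs in capitals.
Sdhd (chr9:50603850-50604099, minus strand): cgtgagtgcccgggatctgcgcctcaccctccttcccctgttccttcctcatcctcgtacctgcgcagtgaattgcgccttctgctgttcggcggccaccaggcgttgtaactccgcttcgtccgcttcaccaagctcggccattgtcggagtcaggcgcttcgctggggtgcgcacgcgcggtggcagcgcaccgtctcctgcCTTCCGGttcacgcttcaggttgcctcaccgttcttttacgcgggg
Ndufs3 (chr2:90904722-90904971, minus strand): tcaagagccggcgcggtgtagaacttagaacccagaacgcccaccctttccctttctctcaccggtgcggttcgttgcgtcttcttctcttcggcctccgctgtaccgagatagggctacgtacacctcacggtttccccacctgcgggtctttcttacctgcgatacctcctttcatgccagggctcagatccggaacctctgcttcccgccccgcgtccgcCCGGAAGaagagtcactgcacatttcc
Cox6a1 (chr5:115348959-115349208, minus strand): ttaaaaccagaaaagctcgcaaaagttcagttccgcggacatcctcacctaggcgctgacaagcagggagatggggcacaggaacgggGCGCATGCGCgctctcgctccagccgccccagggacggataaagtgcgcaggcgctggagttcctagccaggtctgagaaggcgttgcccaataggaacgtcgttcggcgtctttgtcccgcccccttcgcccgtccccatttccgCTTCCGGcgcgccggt
Atp5g1 (chr11:96075632-96075881, minus strand): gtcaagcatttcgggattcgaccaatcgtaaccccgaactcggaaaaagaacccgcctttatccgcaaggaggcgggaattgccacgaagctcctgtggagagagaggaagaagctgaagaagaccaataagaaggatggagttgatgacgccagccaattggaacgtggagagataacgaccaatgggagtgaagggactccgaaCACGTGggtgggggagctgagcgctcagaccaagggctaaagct
Capitals mark the ETS core CCGGAAG or its reverse CTTCCGG in Sdhd, Ndufs3 and Cox6a1, the palindromic core of the NRF1 motif (the longer run of capitals) in Cox6a1, and the E-box CACGTG, a palindrome bound by clock proteins, in Atp5g1. Motifs were searched on both strands in the RefSeq windows from 250 bases before to 50 after the start, which were found for 65 of the 80 genes and for 27025 genes in all. The ETS core was in 16 of the 65 (24.6%) against 9.93% of all genes. The NRF1 core was in 5 (7.69%) against 1.07%, the YY1 motif AAGATGG in 10 (15.4%) against 7.28%, and the estrogen-related receptor element AAGGTCA in 8 (12.3%) against 5.38%. The E-box was in 5 (7.69%) against 8.09% of all genes, and all 5 (Atp5g1, Atp5g3, Atp5l, Ndufa7 and Ndufv1) were among the 28 windows of genes with a higher mean under DRF, a split seen after the calls and not tested. A match is a run of letters, not evidence that a factor bound there.

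The first comparison asked whether the daily mean level of the subunit genes differed between the regimens. It was higher under DRF for 36 of the 80 genes and lower for 0, where 4.09% of all genes were called higher and 2.72% lower. The difference was small and broad, with a median over the 80 genes of 0.14 (1.10-fold) and a range from -0.04 to 0.28, against a median of 0.00 over all genes tested. The estimate was above 0 for 73 of the 80 (91.25%), and for 44.5% of all genes. Without adjustment, 48 of the 80 had p under 0.05, a count that was not taken over all genes and is not comparable with the shares above. All 4 genes of complex II were called, with 17 of 37 in complex I, 4 of 8 in complex III, 8 of 17 in complex V and 3 of 14 in complex IV. In bulk liver, a larger share of the cells that express these genes and more RNA per cell cannot be told apart.

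**Figure D1:**
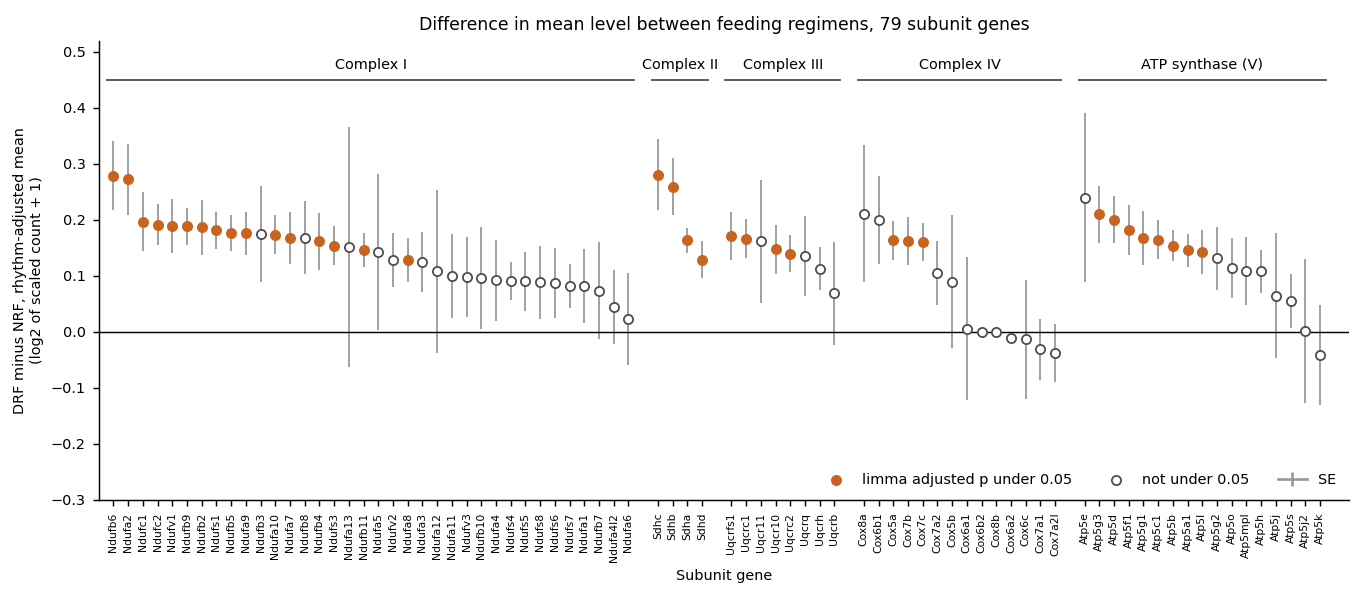
Difference in the rhythm-adjusted mean between DRF and NRF (log2 of scaled count + 1, y axis) for 79 of the 80 genes (x axis), grouped by complex and ordered by size, with bars of 1 SE. Filled points are the 35 of these genes with a limma adjusted p under 0.05, and all of them lie above 0.

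Complex II, succinate dehydrogenase, also a step of the citric acid cycle, had the largest median difference of the 5 complexes, 0.21 with a range of 0.13 to 0.28. Sdha, its flavoprotein, ran from 432 to 552 scaled counts with a median of 479 in the 28 NRF libraries, and from 474 to 601 with a median of 538 in the 28 DRF libraries. The ranges overlapped, but 27 of 28 DRF libraries were above the NRF median, and the difference was 0.16 ± 0.02 (SE; limma adjusted p = 3.34e-07). Sdhb, the iron-sulfur subunit, ran from 156 to 321 with a median of 216 under NRF and from 214 to 301 with a median of 261 under DRF. It was 0.26 ± 0.05 higher under DRF (limma adjusted p = 3.64e-04), and the NRF range was the wider one and enclosed the DRF range. Sdhc and Sdhd anchor the enzyme in the membrane. All 28 DRF libraries were above the NRF median of Sdhc, 82.4, and the difference was 0.28 ± 0.06 (limma adjusted p = 0.00201). Sdhd was 0.13 ± 0.03 higher (limma adjusted p = 0.00751), the smallest difference of the 4.

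In complex I the estimate was positive for all 37 genes, with a median of 0.15. Among the core subunits, Ndufs1 had NRF libraries from 53.8 to 81.0 with a median of 64.3. Its DRF libraries ran from 64.0 to 86.5 with a median of 74.1, a difference of 0.18 ± 0.03 (limma adjusted p = 8.25e-05). Ndufs3 and the NADH-binding Ndufv1 were called as well, at 0.15 and 0.19 (limma adjusted p = 0.00191 and 0.00854). The core subunits Ndufv2, Ndufs8 and Ndufs7 were not called, with differences of 0.13, 0.09 and 0.08. The largest differences in complex I were in the accessory subunits Ndufb6 (0.28 ± 0.06, limma adjusted p = 0.00174) and Ndufa2 (0.27 ± 0.06, limma adjusted p = 0.00294). Ndufb6 shares 39.0% of its exon bases with a gene on the opposite strand, and whether the authors' counts used strand was not given.

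In complex III both core proteins and the Rieske protein were called. Uqcrc1 ran from 90.4 to 138 under NRF with a median of 110 and from 112 to 143 under DRF with a median of 129, and all 28 DRF libraries were above the NRF median. Its difference was 0.17 ± 0.04 (limma adjusted p = 9.98e-04), close to those of Uqcrfs1 (0.17, limma adjusted p = 0.00681) and Uqcrc2 (0.14, limma adjusted p = 0.00412). The fourth gene called was Uqcr10, a small subunit (0.15, limma adjusted p = 0.0278).

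In ATP synthase the 3 subunits named by role were all called. Atp5b, the catalytic beta subunit, had NRF libraries from 216 to 273 with a median of 239 and DRF libraries from 237 to 305 with a median of 267, and 27 of 28 DRF libraries were above the NRF median. The difference was 0.15 ± 0.03 (limma adjusted p = 8.89e-05). Atp5a1, the alpha subunit, was 0.15 higher (limma adjusted p = 5.89e-04) and Atp5c1, the gamma subunit of the rotor, 0.16 higher (limma adjusted p = 0.00104). Of the c subunit genes, Atp5g3 (0.21, limma adjusted p = 0.00474) and Atp5g1 (0.17, limma adjusted p = 0.0210) were called and the most abundant, Atp5g2, was not (0.13, limma adjusted p = 0.169). Atp5k, a small membrane subunit, had the most negative estimate of the 80, -0.04 ± 0.09.

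Complex IV had the smallest median difference, 0.05, with 8 of 14 estimates above 0. The 14 include Cox6a2, Cox8b and Cox6b2, whose low levels leave their log2 differences near 0 and lower this median. With these 3 left out, the mean deviation of complex IV from the average of all libraries was 0.048 under DRF and -0.048 under NRF. The next smallest were 0.064 and -0.064, in complex V. Its calls were Cox5a (0.16, limma adjusted p = 8.97e-04), Cox7b (0.16, limma adjusted p = 0.0114) and Cox7c (0.16). Cox5a ran from 73.1 to 118 with a median of 93.4 under NRF and from 86.1 to 124 with a median of 103 under DRF, so the ranges overlapped over most of their length. Cox5b, its partner on the matrix side, had a difference of 0.09 ± 0.12 that was not called (limma adjusted p = 0.750). Cox6a1 had a difference of 0.01 ± 0.13, and its libraries spread from 32.1 to 159 under NRF. The negative estimates were those of Cox7a2l (-0.04), Cox7a1 (-0.03), Cox6c, and the 3 isoforms near 0. Whether complex IV differed from the other complexes was not tested.

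Red blood cell markers moved with this comparison. All 5 (Hba-a1, Hba-a2, Hbb-bs, Hbb-bt and Alas2) were called higher under DRF, with a median difference of 0.52, and their summed level ran from 567 to 2040 with a median of 1103 under DRF and from 469 to 1351 with a median of 740 under NRF. With the log2 summed level of these markers as a covariate, an alternative added after seeing the data, 9 of the 80 genes were called (Sdha, Ndufs1, Ndufb9, Ndufb5, Atp5b, Atp5d, Uqcrc1 and Sdhb among them), where 1.66% of all genes were called higher. In that fit the 36 genes all kept the sign of their difference, and the median over the 80 was 0.10. Of the 6 hepatocyte markers, Cps1 and Ass1, both of urea synthesis, were higher under DRF and Apoa1 was lower. None of the Kupffer cell, endothelial, stellate, cholangiocyte or lymphocyte markers was called in daily mean, and the 5 striated muscle markers were not listed. Of the 2 brown fat markers tested, Elovl3, a fatty acid elongase, was lower under DRF in daily mean (-0.39, limma adjusted p = 0.0166), and its part in the result was not tested.

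At single times of day, ZT4 is described first, in the light phase, when DRF mice had food and NRF mice did not. There 20 of the 80 genes were higher under DRF and 0 lower, where 10.8% of all genes were called higher and 9.49% lower, and the median over the 80 was 0.23. They were 9 genes of complex I, 2 of complex II, 4 of complex III, 1 of complex IV and 4 of complex V. The count was 11 without DRF replicate 4 of ZT4, and 6 with the red blood cell markers as a covariate, a fit in which 12 were higher at ZT8 and 8 at ZT16. At ZT4 all 5 red blood cell markers were called higher under DRF, and 3 of 5 sinusoidal endothelial, 1 of 5 cholangiocyte, 1 of 4 lymphocyte and 1 of 2 brown fat markers were called lower. Apart from the covariate fit, their part in the count was not tested.

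The clearest single gene at ZT4 was Ndufa8, an accessory subunit of complex I, with 109, 124, 118 and 117 scaled counts under NRF and 172, 159, 166 and 181 under DRF. The groups did not overlap, and the difference was 0.53 ± 0.09 (limma adjusted p = 9.55e-06). Ndufs3 had 44.8, 52.7, 46.5 and 45.8 under NRF and 63.7, 65.7, 59.4 and 66.1 under DRF, again without overlap (0.42 ± 0.08, limma adjusted p = 1.84e-04). For Atp5b the values were 217, 240, 225 and 218 under NRF and 285, 265, 273 and 305 under DRF, and every DRF liver was above every NRF liver (0.33 ± 0.07, limma adjusted p = 2.29e-04). Uqcr10 had 45.6, 49.7, 52.3 and 52.3 under NRF against 68.2, 69.3, 62.7 and 69.6 under DRF (0.43, limma adjusted p = 3.91e-04). Sdhd had 126, 151.5, 145 and 131 under NRF against 181, 170, 168 and 186 under DRF (0.35, limma adjusted p = 0.00168). Neither gene overlapped between the regimens at this time.

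In the fit of all libraries fewer genes were called at the other times, but which time had the most calls changed with the libraries and the covariate. At ZT8, 8 were higher and 1 lower (5.73% and 7.27% of all genes), and the median, 0.22, was close to that at ZT4. At ZT12, 8 were higher and 1 lower (7.05% and 8.11% of all genes), with a median of 0.07. At ZT16, 11 were higher and 0 lower (8.73% and 6.37% of all genes), with a median of 0.16, and the accessory complex I subunit Ndufb11 (0.31, limma adjusted p = 0.00308) was among them. At ZT0 3 genes were higher (7.96% of all genes), namely Atp5s, Ndufs1 and Ndufs3, and 0 lower (8.03%). At ZT20 only Atp5s was higher (7.66% of all genes) and at ZT24 only Sdha (7.08% of all genes), with 0 lower at either time (6.04% and 6.95% of all genes). The counts at ZT12 and ZT16 leaned on single NRF livers. Without NRF replicate 1 of ZT12 the first fell to 1, and the second was 4 without NRF replicate 3 of ZT16 and 25 without NRF replicate 4.

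**Figure D2:**
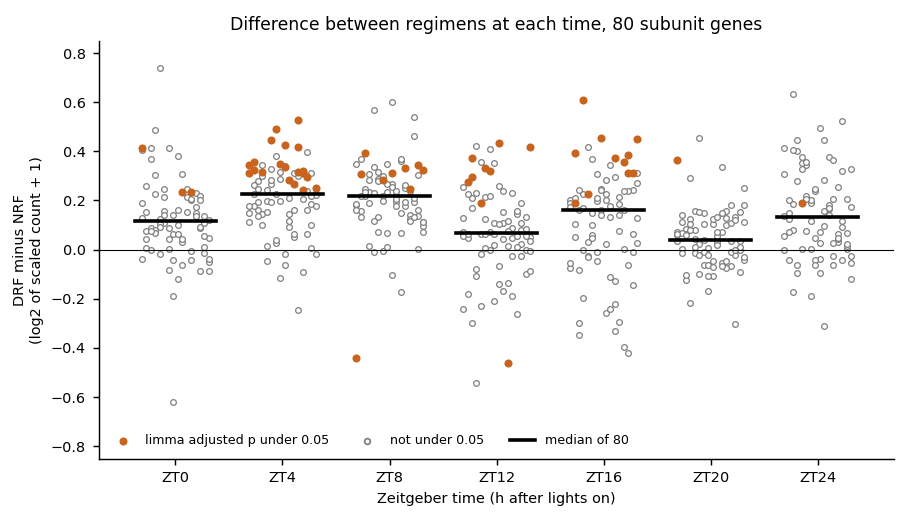
DRF minus NRF (log2 of scaled count + 1, y axis) at each of the 7 times (x axis), 1 point for each of the 80 genes, filled where the limma adjusted p was under 0.05, with a bar at the median. The median is above 0 at all 7 times, from 0.04 at ZT20 to 0.23 at ZT4.

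The second question was whether the subunit genes followed the feeding time or the light cycle. A 24-h cosine was called for 32 of the 80 genes under NRF (43.5% of all genes) and for 39 under DRF (35% of all genes), with 52 called in at least 1 regimen and 19 in both. For these 19 genes the fitted peaks of the regimens were a median of 1.15 h apart, and 17 of 19 (89.5%) were within 4 h. Among the 5891 genes of the whole table called in both, the median was 8.13 h, 24.5% were within 4 h and 50.8% were 8 h or more apart. None of the 19 subunit genes was 8 h or more apart, and the 2 beyond 4 h were Ndufv2 (4.40 h) and Atp5s (7.64 h). Genes called in only 1 regimen are outside this count. Among them were Ndufa8 and Ndufb10, each with fitted peaks 11.1 h apart, Uqcr10 (9.78 h), Ndufs7 (8.75 h) and Ndufc1 (8.06 h). Ndufc1 had no call under DRF, and the others named had none under NRF. The pattern of each of these genes differed at matched ZT. The 24-h pattern differed between regimens at matched ZT for 16 of the 80 genes (38.7% of all genes), and at matched feeding time, where a pattern moved by 12 h would show no difference, for 39 (34.1% of all genes).

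**Figure D3:**
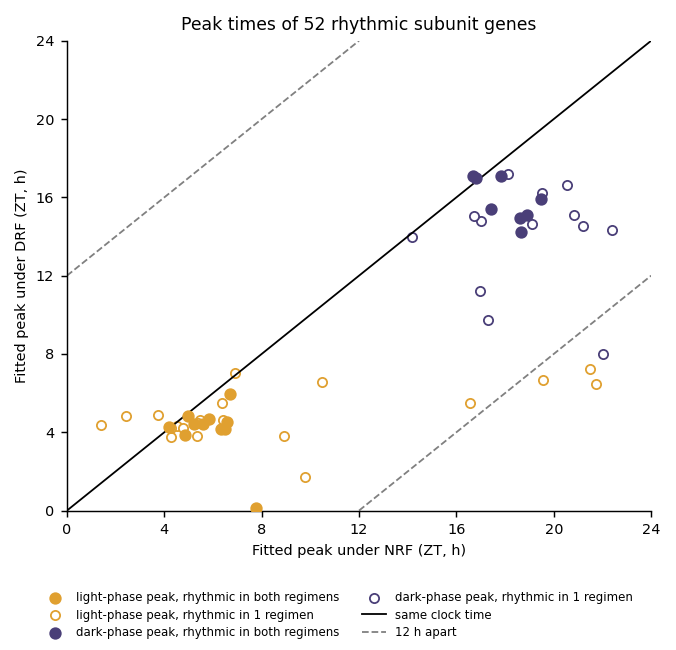
Fitted peak time under DRF (y axis, ZT in hours) against that under NRF (x axis, ZT in hours) for the 52 genes rhythmic in at least 1 regimen, filled where rhythmic in both. Of the 19 filled points, 17 lie within 4 h of the solid line of equal clock time, and none lies on the dashed lines, which mark peaks 12 h apart.

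The 52 rhythmic genes fell into 2 spans of the day by the peak of the regimen with the smaller adjusted p. Peaks of 31 genes lay in the light phase, from ZT 2.44 to 9.78 with a median of 4.61, and those of 21 lay in the dark phase, from ZT 14.2 to 22.4 with a median of 17.2. The light-phase genes held 17 of complex I, 4 of complex III, 4 of complex IV, 6 of complex V and 0 of complex II, with Ndufa1, Ndufb7, Ndufs7, Uqcrq, Cox5b, Cox6a1 and Atp5j2 as examples. The dark-phase genes held 8 of complex I, 3 of complex II, 3 of complex III, 2 of complex IV and 5 of complex V, with Ndufs1, Ndufb5, Ndufb9, Sdha, Uqcrc1, Uqcrh, Cox5a, Cox7a2, Atp5a1 and Atp5d as examples. Their median exon length was 2181 bases against 1217 for the light-phase genes and 2454.5 over all genes tested. Of the dark-phase genes 18 of 21 were among the 36 with a higher mean under DRF, with a median difference of 0.17 and a median SD within groups of 0.14. Of the light-phase genes 3 of 31 were among them, with a median difference of 0.09 and a larger median SD of 0.24, and the difference between the classes was not tested.

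Short and long transcripts in general drifted against each other between sampling times in these libraries. An index of this drift was Spearman's rho over genes of exon length with the gene's deviation in that library from its own average. Its group means were from -0.06 to -0.23 at ZT0 to ZT8 and from 0.04 to 0.18 at ZT12 to ZT24 in both regimens. Up to ZT20 this change ran broadly with the pattern of both classes. At ZT24, where the index was highest in both regimens, the dark-phase genes stood at -0.03 under NRF and -0.02 under DRF. Under DRF that was below their group means at ZT0 to ZT8, which were 0.02 to 0.04. The index did not return to its start at the same clock time. From ZT0 to ZT24 it went from -0.18 to 0.18 under NRF and from -0.12 to 0.17 under DRF. After a correction of each library for exon length, 28 of the 31 light-phase and all 21 dark-phase genes were still rhythmic, each in the same phase of the day. The scaling moved more calls. With every library scaled to the same total, all 31 light-phase genes were called and peaked in the light phase, but 13 of the 21 dark-phase genes were called and 10 of these peaked in the dark phase. With the deposited values used unchanged, the reverse held, with 12 of 31 light-phase genes called with a light-phase peak and 21 of 21 dark-phase genes called with a dark-phase peak.

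**Figure D4:**
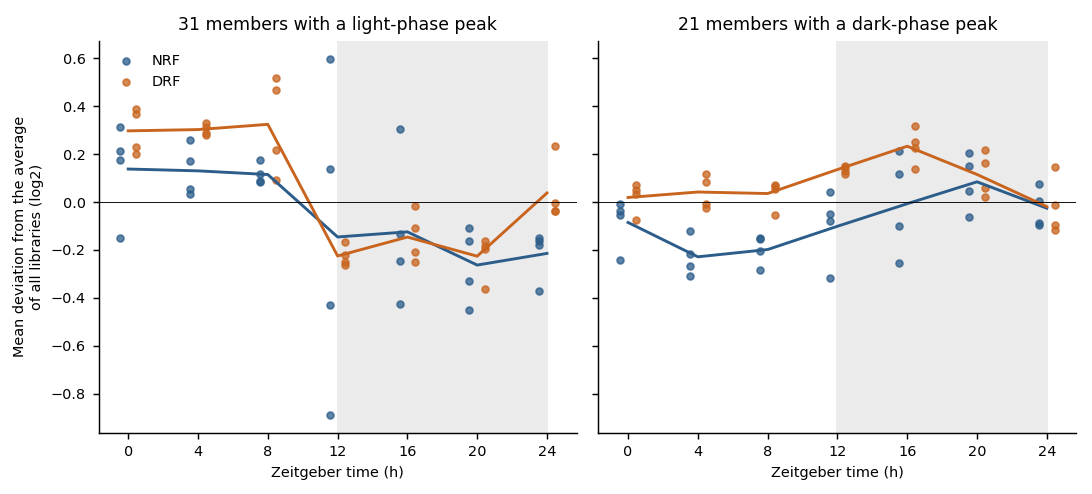
Mean deviation from the average of all libraries (log2, y axis) against zeitgeber time (x axis, dark phase shaded) for the 31 light-phase genes (left) and the 21 dark-phase genes (right), with 1 point for each library and lines through group means. Light-phase genes are above 0 at ZT0 to ZT8 in both regimens, and the 4 NRF libraries of ZT12 spread from -0.89 to 0.60.

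As a mean over the 31 light-phase genes, DRF livers stood 0.30 ± 0.09 above the average of all libraries at ZT0, 0.32 ± 0.20 above it at ZT8, and at -0.23 ± 0.04 at ZT12 (log2, SD, n = 4 each). NRF livers stood at 0.14 ± 0.20, 0.11 ± 0.04 and -0.15 ± 0.65 at the same times. The spread at NRF ZT12 was the widest of the 14 groups, and 2 of its livers were far above the other 2, as in Cox6a1 with 95.0, 159, 41.5 and 32.1 scaled counts. The 21 dark-phase genes were lowest at ZT4 under NRF (-0.23 ± 0.08) and highest at ZT16 under DRF (0.23 ± 0.07).

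ZT0 and ZT24 are the same clock time in different animals, and the light-phase genes had different means at these times. The mean was 0.14 at ZT0 and -0.21 at ZT24 under NRF, where the gap was close to the whole daily swing of -0.26 to 0.14, and 0.30 and 0.04 under DRF. Between these times 1 of the 80 genes was higher at ZT24 and 4 lower under NRF (2.26% and 5.53% of all genes), and 0 higher and 1 lower under DRF (1.41% and 1.64% of all genes). The scaling decided these counts. With the values as deposited the direction turned, with 31 higher and 2 lower under NRF and 4 higher and 0 lower under DRF. The library factor that multiplies the deposited values of every gene also rose from ZT0 to ZT24. Its group mean went from 56215 to 60370 under NRF and from 57712 to 60135 under DRF. With libraries scaled to the same total there were 1 higher and 12 lower under NRF and 0 higher and 4 lower under DRF. Shares over all genes were not counted under either scaling, so these counts are not read as particular to the subunit genes. Under NRF, Ndufa4l2, a hypoxia-linked relative of Ndufa4, had 4.01, 6.20, 6.23 and 4.52 at ZT0 and 3.36, 2.63, 3.05 and 2.0 at ZT24, without overlap (-0.73 ± 0.13, limma adjusted p = 4.33e-04). Cox6a1 fell by 0.92, Uqcrq by 0.58 and Cox7a1 by 0.49 on the log2 scale, and Ndufv2 was 0.37 higher (limma adjusted p = 0.0419, 0.0110, 0.00511 and 0.0317). The DRF gene was Uqcr10, which fell by 0.39 (limma adjusted p = 0.0127).

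Light-phase genes had the largest fitted amplitudes, given here as the log2 distance from mean to peak. They were Ndufa13 (0.72 under DRF), Cox6a1 (0.69), Cox5b (0.66), Atp5j2 (0.60) and Ndufa5 (0.57). Cox5b peaked at ZT 6.47 under NRF and at ZT 4.16 under DRF (limma adjusted p = 0.0397 and 9.30e-05), the NRF call being lost in 12 of 28 fits that left out 1 library, and Cox6a1 at ZT 6.59 and 4.54 (limma adjusted p = 0.00519 and 1.69e-04). Ndufa13, also known as GRIM-19, was not called under NRF (limma adjusted p = 0.282), varied within groups with an SD of 0.81 on the log2 scale and shares 29.98% of its exon bases with a gene on the opposite strand.

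The 16 genes whose pattern differed at matched ZT were 8 of complex I, 1 of complex II, 1 of complex III, 3 of complex IV and 3 of complex V. The smallest adjusted p was that of Atp5s, the coupling factor B of ATP synthase, which peaked at ZT 7.75 under NRF and at ZT 0.11 under DRF (limma adjusted p = 5.77e-06). At ZT8 it had 9.25, 8.42, 10.8 and 10.8 scaled counts under NRF and 6.22, 7.56, 6.48 and 7.54 under DRF, and the groups did not overlap (-0.44 ± 0.12, limma adjusted p = 0.00792). At ZT0 the order was the other way round, with 6.04, 9.16, 7.07 and 6.74 under NRF and 9.37, 10.3, 9.97 and 9.998 under DRF (0.41 ± 0.12, limma adjusted p = 0.0107). Its pattern also differed at matched feeding time (limma adjusted p = 0.00740).

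Cox7a2l, counted here with complex IV, was the next (limma adjusted p = 5.17e-04). At ZT12 it had 127, 134, 129 and 125 scaled counts under NRF and 90.4, 100.8, 85.9 and 95.5 under DRF, without overlap and lower under DRF (-0.46 ± 0.12, limma adjusted p = 0.00618). Its fitted peak was at ZT 9.78 under NRF, and its rhythm under DRF was not called (limma adjusted p = 0.184). Ndufa8, Ndufs7 and Uqcr10 were called rhythmic under DRF and not under NRF, and peaked under DRF between ZT 6.48 and 7.25, with limma adjusted p of 8.11e-04, 0.0421 and 0.0237 under DRF and of 0.491, 0.330 and 0.598 under NRF. The call of Ndufs7 was lost in 9 of 28 fits that left out 1 library. Ndufv2, Cox5a and Atp5g3 were rhythmic in both regimens and peaked between ZT 18.6 and 18.9 under NRF and between ZT 14.2 and 15.1 under DRF, and the DRF call of Ndufv2 was lost in 12 of 28 such fits.

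**Figure D5:**
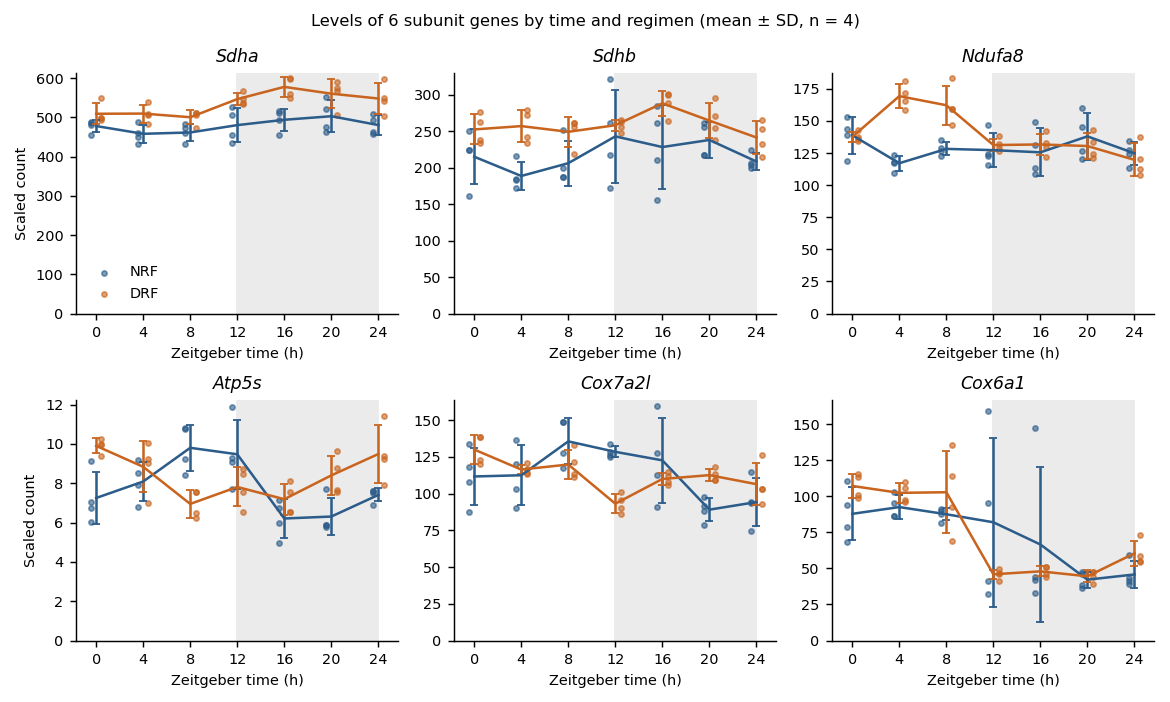
Scaled counts (y axis) of Sdha, Sdhb, Ndufa8, Atp5s, Cox7a2l and Cox6a1 against zeitgeber time (x axis, dark phase shaded) under NRF and DRF, with points for livers and lines for the mean ± SD (n = 4). Sdha is higher under DRF on average at every time, Ndufa8 separates at ZT4 and ZT8, and the NRF livers of Cox6a1 split at ZT12.

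Genes around the chain were counted in the same fits, where 4.09% of all genes were called higher in mean under DRF and 2.72% lower. Of 46 assembly factors, 8 were higher in mean under DRF and 0 lower, with a median of 0.07. They included Coa6, a copper-delivery factor of complex IV (0.28, limma adjusted p = 1.28e-04), and the complex I factors Nubpl and Ndufaf6. Of 7 nuclear subunits and carriers outside the naming rule, 2 were higher, Cyc1, the cytochrome c1 of complex III, by 0.19 and Usmg5, a small ATP synthase subunit, by 0.18. Of 17 regulators of mitochondrial gene expression, 3 were higher, namely the coactivator Ppargc1a (0.34), the nuclear receptor Esrrg (0.33) and the deacetylase Sirt3 (0.12), and 1 was lower, the transcription factor Nrf1 (-0.12).

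Of 12 mitochondrially encoded subunits tested, 1 was higher, mt-Nd6 (0.18, limma adjusted p = 0.0459), and 0 lower (4.09% and 2.72% of all genes), with a median of 0.00. Their levels were uneven, at a mean of 4195 scaled counts for mt-Co1 and 0.255 for mt-Nd1, and their sum ran from 1677 to 9129 under DRF and from 1708 to 18361 under NRF, so no balance of nuclear and mitochondrial subunits was read from them.

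For the 77 subunit genes with a median of at least 100 counts, deviations from group means correlated at a median r of 0.33 over pairs of genes. Of these pairs, 82.7% were above 0. Genes share libraries and depth, so this is a description. Genes outside these lists and above a floor of mean level were searched for 14 group means most like the mean over these 77. They were Mgst3 (r = 0.97), a microsomal glutathione transferase, Copz2 (0.94), Chchd10, a mitochondrial protein of the intermembrane space (0.89), Isoc2a (0.89) and the acute-phase protein Orm2 (0.89).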

How the data were processed

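Gene-level values of 56 liver libraries were used. The libraries were made by ribosomal RNA depletion, strand-specific and paired-end per the protocol, although the labels name polyA RNA. The submitters' processing notes name CASAVA 1.8, featureCounts 1.5.0-p3 and builds mm10 and GRCm38.p6, and the aligner and the strand setting are not given in the sources used here. The authors deposited a score called TPM, which was not linear in counts. Each deposited value times exon length followed a library factor times the logarithm of 1 plus a scaled whole count, and in genes held out of the fit 93.7% to 98.9% of values came out whole to within 0.05 in bins of up to 150000 counts. The counts of 216 deeper genes, Sdha among the members, lay beyond that range and were not checked for whole values. The scaled counts were therefore tested in place of the deposited values. A length was searched from the values for 2203 genes, and 1 gene was left out. No column was without a sample (0 unused). Transcript and circular RNA files were not used.

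log2(scaled count + 1) was fitted with limma 3.58.1 (trend, robust) in R 4.3.3, as a 24-h cosine per regimen and as 14 group means, with Benjamini-Hochberg adjustment over 25414 genes. A filter at a mean deposited value of 0.1 removed 0 genes. Tables and figures were made in Python 3.11.15, and the fits were tested on simulated data. Alternatives changed the scaling, pseudocount, filter, length correction, replicate block, rhythm test and libraries. Members and lists were chosen with earlier results of these data known. Named genes were those of set roles and isoforms, the smallest and largest adjusted p of the rhythm difference per complex, the 5 largest amplitudes and the 3 largest mean differences in each direction. Genes named beyond that rule (for example Ndufb5, Ndufb9, Ndufb11, Atp5d and Uqcrq) were picked after their values were seen. A gene of complex I named by that rule is counted but not reported here by itself.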

Additional observations from a re-analysis of the deposited data

Results flagged for a closer look

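Over 112 checks of groups of 4 libraries, 10 values lay far from the other 3 of their group, where chance alone gives about 1 in 20 in a single check. The checks, in each of 14 groups, covered the mean over the 77 subunit genes with a median of at least 100 counts. They also covered the means of these genes by complex and the means over the light-phase and dark-phase genes. These means share genes and libraries, so the checks were not independent and no excess over chance can be read from them. As deviations on the log2 scale, NRF ZT0 replicate 1 stood at -0.208 for the mean over the 77 genes, against 0.0717 to 0.129 in the other livers, and at -0.217 for complex V. DRF ZT24 replicate 3 stood at 0.243 for complex I, 0.219 for complex III and 0.234 for the light-phase genes, and DRF ZT8 replicate 2 at -0.068 for complex II and -0.0523 for the dark-phase genes. For complex III, DRF ZT12 replicate 4 stood at -0.00508 and NRF ZT16 replicate 1 at -0.307, and for the light-phase genes NRF ZT24 replicate 2 stood at -0.369.

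The 24-h pattern differed between the regimens at matched ZT for 16 of the 80 members (20%, against 38.7% of all genes), by the limma test of the difference itself. Of these, 12 are named by the rule, with limma adjusted p of 5.77e-06 for Atp5s, 0.000517 for Cox7a2l, 0.00171 for Ndufv2, 0.00179 for Ndufa8, 0.00295 for Atp5g1, 0.0056 for Cox5a, 0.0266 for Atp5g3, 0.0291 for Sdhd, 0.0348 for Ndufs7, 0.0351 for Uqcr10, 0.0357 for Cox7a2 and 0.0433 for Ndufb6.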

How the results depend on the processing

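No called mean difference of a named gene reversed in sign under any alternative. The rhythm tests carry no sign, so a reversal could not show in them. Some rhythmic peaks changed phase of the day with the scaling, as given above. Under every other scaling, pseudocount, filter, length correction, block or choice of times, the higher DRF mean held for 29 to 36 of the 80. The count fell to 9 with the red blood cell markers as a covariate, a fit added after seeing the data, which also gave 6 higher at ZT4, 1 higher and 1 lower at ZT0, and 0 higher at ZT12 and at ZT24. Without the NRF ZT12 group, also added after seeing the data, the mean count was 34, with 3 higher at ZT20, 5 at ZT24, and at ZT24 against ZT0 2 higher and 12 lower under NRF and 3 lower under DRF. With libraries scaled to the same total, 6 genes were higher at ZT0, 5 at ZT16, 3 at ZT20 and 4 at ZT24, and 12 under NRF and 4 under DRF were lower at ZT24 than at ZT0. With the values as deposited, the pattern at matched ZT differed for 8 genes, 10 were higher at ZT0, 1 at ZT8, 4 at ZT16 and 0 at ZT24, 0 were lower at ZT12, and at ZT24 against ZT0 31 were higher and 2 lower under NRF and 4 higher and 0 lower under DRF. Median of ratios scaling gave 2 higher at ZT24 than at ZT0 under NRF, and the length correction 1 lower at ZT16. NRF rhythms were called for 21 genes when NRF was fitted alone and for 18 by the exact rank test. The causes were not tested, and shares over all genes were not counted under these alternatives except for the mean difference.

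The replicate block gave 36 genes with a higher mean and 2 higher at ZT20, with no other count past 1.5 times its value. Replicate numbers are names only, since libraries with the same number in different groups deviated with a median r of 0.00489 over 364 pairs, against -0.00236 over 1092 other pairs.

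Leaving out each library in turn gave 34 to 39 genes higher and 0 lower in mean (median difference 0.12 to 0.15), 26 to 42 rhythmic under NRF, 33 to 40 under DRF, 12 to 19 differing at matched ZT and 37 to 51 at matched feeding time. It gave 1 to 3 higher and 0 to 1 lower at ZT0, 11 to 23 higher at ZT4, 3 to 9 at ZT8 (3 without DRF ZT8 replicate 4), 1 to 10 higher and 1 to 4 lower at ZT12, 4 to 25 higher and 0 to 1 lower at ZT16, 0 to 3 higher at ZT20 and 0 to 1 at ZT24. At ZT24 against ZT0 it gave 0 to 1 higher and 2 to 9 lower under NRF (9 without NRF ZT0 replicate 1), and 0 to 1 higher and 0 to 2 lower under DRF. Of the named calls, beside those of Cox5b, Ndufs7 and Ndufv2 given above, the rhythm was lost for Atp5k (19 of 28 fits) and Atp5g2 (9) under DRF and for Sdhd (17), Ndufa4 (13) and Uqcrc1 (9) under NRF. The difference in pattern was lost in 20 of 56 fits for Ndufb6 at matched ZT and in 39 for Uqcrb and 17 for Sdhb at matched feeding time, and the mean difference of Ndufa8 in 15. With 4 libraries a group, counts of a few genes at single times are uncertain.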
